A study of Mus musculus with 6 samples.

Results

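The adenylyl cyclase genes (Adcy3, Adcy4, Adcy5, Adcy6, Adcy7 and Adcy9) and the 4 PDE4 genes (Pde4a, Pde4b, Pde4c and Pde4d) were followed by mRNA-seq in 3 mouse embryonic fibroblast lines that differed in exogenous CRY protein. These 6 cyclase and 4 PDE4 genes, 10 of 27179 in the count data, were chosen by name as genes for making and breaking down cAMP. The CPN-/- line carries knockouts of Cry1, Cry2, Per1, Per2, Nr1d1 and Nr1d2. Retroviral transfer of Cry1 or Cry2 into it gave the CPN-/- CRY1 line ("with CRY1" below) and the CPN-/- CRY2 line ("with CRY2"). All 3 lines therefore lack the endogenous CRY, PER and NR1D proteins. Each line was grown in DMEM with 10% fetal bovine serum under 5% CO2, and RNA was taken from 2 preparations per line before the cells were fully confluent, without synchronization being stated. Each CRY line is a colony selected with blasticidin and expresses CRY continuously from the vector, so that an effect of CRY and a property of the colony cannot be told apart.

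Adenylyl cyclases are membrane enzymes that convert ATP to the second messenger cAMP, and they are switched on by receptors coupled to the stimulatory G protein Gs and held back by the inhibitory Gi proteins. PDE4 enzymes hydrolyse cAMP, and A-kinase anchoring proteins hold several of them next to protein kinase A, the main cAMP sensor. Protein kinase A phosphorylates CREB, which binds the cAMP response element (CRE) in promoters. CRY proteins have been described to restrain cAMP signalling by acting on Gs and on adenylyl cyclase activity, and the present libraries address only the mRNA side of that pathway. Adcy5 and Adcy6 encode the pair of cyclases inhibited by calcium, Adcy7 is a cyclase stimulated by G protein βγ subunits, and Adcy9 is largely insensitive to forskolin.

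None of the 8 genes that could be tested passed the threshold in any of the 3 comparisons. Per kb of annotated exon, Adcy6 with Adcy7, and Pde4a, carried most of the mRNA of the listed genes of their families in every line. Intervals that excluded 0 were those of Pde4d and Adcy5, both higher in the CPN-/- CRY1 line than in CPN-/-, and of Pde4a, higher in the CPN-/- CRY1 line than in the CPN-/- CRY2 line. Adcy5 passed the filter on low counts only through CRY libraries, so that its interval gives no separate support for a rise. The 2 CPN-/- libraries differed from each other more than the libraries of either CRY line did, and counts of called genes against CPN-/- are given with and without each of them.

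Libraries held between 25957409 and 36106949 counts, so that the floor of 3 counts lay between 0.0830 and 0.115 CPM (counts scaled to library size with edgeR's TMM factors). Cry1 was highest in the CPN-/- CRY1 line (165 and 190 CPM against 125 and 115 in CPN-/-) and Cry2 in the CPN-/- CRY2 line (349 and 351 CPM against 136 and 129), and the counts do not separate knocked-out from exogenous transcripts. The 7 fibroblast markers summed to 9006 to 13899 CPM, with Thy1 too low to test. The sum hides markers that differed between lines. In CPN-/- CRY1 against CPN-/-, 1 of the 6 tested was lower and 1 higher at an edgeR adjusted p under 0.05 (24.3% of all tested genes). They were Pdgfra (log2 fold change -1.31, edgeR adjusted p = 0.0015) and Pdgfrb (0.88, adjusted p = 0.010). The summed markers of epithelial, haematopoietic, endothelial, neuronal and muscle cells each stayed at or under 0.815 CPM. The libraries are separate RNA preparations of a line, so that p-values measure the spread between preparations.

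Promoter windows of the RefSeq table (GRCm38.p6, the build of mm10) existed for 9 of the 10 genes, Adcy6 having no entry. Over the 250 bases before each of the 17 annotated starts, the E-box CACGTG, which CLOCK-BMAL1 binds, was in 0 windows, against 6.02% of all 32851 windows. So few windows at that share cannot show a lack of E-boxes. Bases after the start were not searched, and the authors place the E-boxes of Pdk1 in its first intron. The palindromic CRE, TGACGTCA, was also in 0 windows (1.55% of all windows), and its 5-base core TGACG, read on both strands and contained in the palindrome, was in 4 windows of 4 genes (17.8% of all windows). The 3 core-bearing windows without an annotated exon are shown because they hold letters of the element that CREB is known to bind. Each is the 60 bases up to the start of transcription on the gene's strand, 5′ to 3′, with the core or its reverse complement in capitals. The first lies at chr8:88282932-88282991 on the plus strand with the core at -28, the next at chr16:4420499-4420558 on the minus strand with the core at -24, and the last at chr9:21184041-21184100 on the plus strand with the core at -50.
Adcy7: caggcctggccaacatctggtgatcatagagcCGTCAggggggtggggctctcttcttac
Adcy9: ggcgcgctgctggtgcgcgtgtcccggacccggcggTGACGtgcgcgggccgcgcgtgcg
Pde4a: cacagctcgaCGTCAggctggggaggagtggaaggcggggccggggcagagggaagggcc
The remaining core was in a Pde4b window that overlaps annotated exons. A match of letters is a description of the sequence, and no factor binding was measured.

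Levels were compared between genes per kb of annotated exon (CPM per kb). Among the cyclases the order was Adcy6, Adcy7, Adcy9, Adcy3 and Adcy5 in each of the 6 libraries. In the CPN-/- line, Adcy6 stood at 12.7 ± 1.17 CPM per kb and Adcy7 at 9.43 ± 3.37 (SD, n = 2), neighbours that differed by less than the SD of Adcy7. In the CPN-/- CRY2 line, the same genes stood at 13.1 ± 0.0450 and 11.7 ± 0.393 CPM per kb, a gap wider than their spread. Adcy9 followed at 1.66 ± 1.01 CPM per kb in CPN-/-, 2.97 ± 0.142 with CRY1 and 3.01 ± 0.0871 with CRY2. Adcy3, a cyclase known from olfactory neurons and primary cilia, had means between 0.508 and 0.628 CPM per kb, and Adcy5 had means between 0.0255 and 0.0634.

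As a share of the summed level of the 6 cyclases, Adcy6 made up 53.0% ± 7.81 in CPN-/-, 49.2% ± 0.192 with CRY1 and 46.0% ± 0.837 with CRY2 (SD, n = 2 each). Adcy7 made up 38.1% ± 4.74, 35.8% ± 0.545 and 41.4% ± 0.777 in the same order of lines. Adcy9 took 6.50% ± 2.602 in CPN-/-, 12.1% ± 0.455 with CRY1 and 10.6% ± 0.150 with CRY2. The summed level of the 6 was 24.4 ± 5.81, 24.5 ± 0.254 and 28.4 ± 0.418 CPM per kb, and the range of the CPN-/- libraries (20.3 and 28.5) held both CPN-/- CRY1 libraries. These sums and shares leave out the cyclase gene Adcy1, with means of 1.51, 0.736 and 1.65 CPM per kb in the same order of lines.

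Among the PDE4 genes the order was Pde4a, Pde4d and Pde4b in each library, and it was the same per kb of the longest transcript. Per kb of annotated exon, Pde4a made up 65.8% ± 0.114 of the summed PDE4 level in CPN-/-, 63.0% ± 0.572 with CRY1 and 60.7% ± 1.13 with CRY2 (SD, n = 2 each). Its share was smaller per kb of the longest transcript. There, Pde4a, Pde4d and Pde4b had means of 8.18, 4.59 and 2.38 CPM per kb in CPN-/- and 7.32, 5.09 and 2.65 with CRY2. The summed PDE4 level was 8.32 and 6.79 CPM per kb in the CPN-/- libraries, 9.04 and 8.82 with CRY1, and 7.44 and 7.20 with CRY2. It was highest in the CPN-/- CRY1 libraries, and the CPN-/- CRY2 libraries lay inside the range of CPN-/-.

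Adcy4 and Pde4c did not pass the filter on low counts. Adcy4 had 0 counts in all 6 libraries, which allows up to 0.0830 to 0.115 CPM by counting error alone. Pde4c had 1 and 1 counts in CPN-/-, 4 and 2 with CRY1, and 3 and 0 with CRY2, at or near the floor in every line, so that no fold is given.

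**Figure D1:**
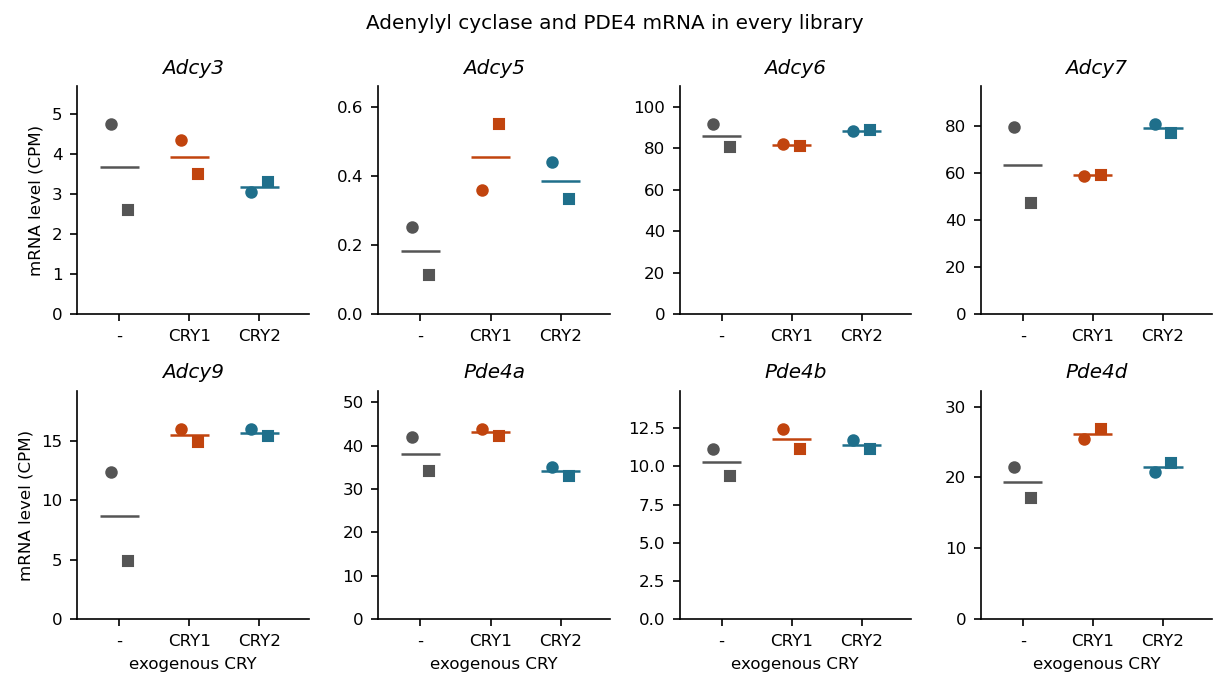
Levels of the 8 tested genes in CPM (linear axes from 0) in CPN-/- (marked -), CPN-/- CRY1 and CPN-/- CRY2, with circles for replicate 1, squares for replicate 2 and bars for the mean of 2 libraries. Replicate 2 of CPN-/- lies below replicate 1 in all 8 panels, with Adcy9 at 12.4 and 4.91 CPM and Adcy7 at 79.5 and 47.4 CPM.

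The cyclase Adcy6 (Entrez 11512, chr15:98589978-98610287, mm10) had 91.7 and 80.4 CPM in the CPN-/- libraries, 82.1 and 81.3 with CRY1, and 88.4 and 88.8 with CRY2. The CPN-/- range covered both CPN-/- CRY2 libraries and both CPN-/- CRY1 libraries, and the 2 CRY lines did not overlap each other. The log2 fold change was -0.08 ± 0.10 (SE) for CPN-/- CRY1 against CPN-/- (95% interval -0.31 to 0.16, adjusted p = 0.59, edgeR quasi-likelihood test with Benjamini-Hochberg adjustment). It was 0.04 for CPN-/- CRY2 against CPN-/- (-0.20 to 0.28), the narrowest interval of the 8 genes in that comparison. Adcy6 lies on a chromosome whose 530 tested genes had a median log2 fold change of -0.36 in CPN-/- CRY1 against CPN-/- and of -0.43 against CPN-/- CRY2. With the chromosome medians removed, Adcy6 turned to 0.30 (adjusted p = 0.088) and 0.33 (adjusted p = 0.10) in these comparisons. Exons of Adcy6 share 605 bases with Gm29331 on the opposite strand, and the strand setting of the counting is not given in the sources used here.

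Adcy7 (Entrez 11513, chr8:88272190-88329965) had 79.5 and 47.4 CPM in the CPN-/- libraries, 58.8 and 59.2 with CRY1, and 80.9 and 77.2 with CRY2. Both CPN-/- CRY1 libraries lay below both CPN-/- CRY2 libraries, while replicate 1 of CPN-/- lay among the CPN-/- CRY2 values and replicate 2 below all others. The log2 fold change of CPN-/- CRY1 against CPN-/- CRY2 was -0.42 ± 0.22 (SE, 95% interval -0.94 to 0.10, edgeR adjusted p = 0.25). In a fit of those 4 libraries alone it was -0.42 with an adjusted p of 4.0e-07, and it passed in 4 of 15 alternative fits (highest adjusted p 0.57). Against CPN-/-, the value for CPN-/- CRY1 was -0.11 (-0.63 to 0.41) and turned on 1 library. It was 0.32 (adjusted p = 0.00041) without replicate 1 of CPN-/- and -0.42 (adjusted p = 4.3e-06) without replicate 2, each time past the threshold and in opposite directions.

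Adcy9 (Entrez 11515, chr16:4284886-4437236, minus strand) had 12.4 and 4.91 CPM in the CPN-/- libraries, 15.97 and 14.9 with CRY1, and 15.98 and 15.3 with CRY2. Behind these values stood 393 and 128 counts in CPN-/- and between 414 and 577 in the other libraries. All 4 CRY libraries were above both CPN-/- libraries, and the CRY lines overlapped each other. The log2 fold change against CPN-/- was 0.82 ± 0.35 (SE, 95% interval -0.02 to 1.67, edgeR adjusted p = 0.13) for CPN-/- CRY1. For CPN-/- CRY2 it was 0.84 ± 0.36 (-0.00 to 1.69, adjusted p = 0.20). Adcy9 passed the threshold in both comparisons when either CPN-/- library was left out, at 1.65 and 1.67 without replicate 1 and at 0.33 and 0.35 without replicate 2, the 2 of 15 alternative fits in which it did. Between the CRY lines the value was -0.02 (-0.84 to 0.80). The 420 tested genes of its chromosome had a median log2 fold change of 0.27 in CPN-/- CRY1 against CPN-/- and of -0.09 in CPN-/- CRY2 against CPN-/-.

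Adcy3 (Entrez 104111, chr12:4133116-4213525) had 4.75 and 2.61 CPM in CPN-/-, 4.34 and 3.50 with CRY1, and 3.05 and 3.30 with CRY2. The CPN-/- libraries enclosed all 4 others, and the log2 fold changes against CPN-/- were 0.08 (95% interval -0.58 to 0.74) and -0.23 (-0.92 to 0.46). They turned on 1 library, at 0.60 (adjusted p = 0.019) and 0.28 (adjusted p = 0.32) without replicate 1 of CPN-/- and at -0.26 (adjusted p = 0.27) and -0.57 (adjusted p = 0.031) without replicate 2. Its exons share 1380 bases with Cenpo on the opposite strand.

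Adcy5 (Entrez 224129, chr16:35154494-35305743), a cyclase of striatum and heart, had 8 and 3 counts in CPN-/-, 13 and 17 with CRY1, and 12 and 9 with CRY2. It was near the floor in the CPN-/- line, and all 4 CRY libraries were above both CPN-/- libraries. Adcy5 passed the filter on low counts only through CRY libraries, both of those with CRY1 among them, and not through CPN-/-. Its values against CPN-/- therefore give no separate support for a rise. The log2 fold changes against CPN-/- were 1.23 (95% interval 0.07 to 2.39, edgeR adjusted p = 0.11) for CPN-/- CRY1 and 1.02 (-0.22 to 2.25, adjusted p = 0.27) for CPN-/- CRY2. Without replicate 1 of CPN-/- they were 1.92 (adjusted p = 0.036) and 1.71 (adjusted p = 0.083), and without replicate 2 they were 0.83 (adjusted p = 0.30) and 0.62 (adjusted p = 0.56). The chromosome medians given for Adcy9 are also those of Adcy5.

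Pde4d (Entrez 238871, chr13:108654177-109955969), the PDE4 gene with the most annotated transcripts of the 4, had 21.5 and 17.1 CPM in CPN-/-, 25.4 and 26.9 with CRY1, and 20.8 and 22.0 with CRY2. Both CPN-/- CRY1 libraries stood above the other 4. The log2 fold change of CPN-/- CRY1 against CPN-/- was 0.43 ± 0.13 (SE, 95% interval 0.12 to 0.75), a fold of 1.35, with an edgeR adjusted p of 0.056. It passed the threshold in 5 of 15 alternative fits. These were DESeq2's Wald test (0.45, adjusted p = 0.044), the fit without the filter on low counts (0.44, adjusted p = 0.039), the fit with each library's length trend removed (0.41, adjusted p = 0.012), and those with replicate 1 or replicate 2 of CPN-/- left out (0.61 and 0.29). It did not pass with chromosome medians removed (0.42, adjusted p = 0.066), in the 4 libraries alone (0.44, adjusted p = 0.12) or with replicate 1 or replicate 2 of CPN-/- CRY1 left out (0.48 and 0.40, adjusted p = 0.20 and 0.28). Against CPN-/- CRY2 the value for CPN-/- CRY1 was 0.29 (-0.03 to 0.60, adjusted p = 0.20), and 0.29 with an adjusted p of 0.0022 in those 4 libraries alone, and it passed in 3 of 15 alternative fits (highest adjusted p 0.60). CPN-/- CRY2 against CPN-/- gave 0.15 (-0.17 to 0.47).

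Pde4d had the lowest p of the 8 genes in the test of any difference among the 3 lines (edgeR adjusted p = 0.10). The genes with the most similar profile over the 6 libraries, by the root mean square difference of centred log2 CPM among 11999 genes, were Sfmbt1, Irf2bpl, Trak1, Mtmr4 and Dnajb9, at 0.032 to 0.040. Irf2bpl, for example, had 65.9 and 51.2 CPM in CPN-/-, 80.8 and 80.3 with CRY1, and 61.9 and 66.8 with CRY2.

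Pde4a (Entrez 18577, chr9:21165700-21213248) had 41.9 and 34.2 CPM in CPN-/-, 43.9 and 42.2 with CRY1, and 35.1 and 33.1 with CRY2. The CPN-/- CRY1 libraries were above all others, while those of CPN-/- CRY2 overlapped CPN-/-. CPN-/- CRY1 against CPN-/- CRY2 gave a log2 fold change of 0.34 ± 0.12 (SE, 95% interval 0.05 to 0.63, edgeR adjusted p = 0.11). In those 4 libraries alone it was 0.34 with an adjusted p of 6.5e-05, and it passed in 4 of 15 alternative fits (highest adjusted p 0.49). Against CPN-/- the values were 0.18 (-0.11 to 0.46) for CPN-/- CRY1 and -0.16 (-0.45 to 0.13) for CPN-/- CRY2. They were 0.33 (adjusted p = 0.00065) and -0.0073 (adjusted p = 0.95) without replicate 1 of CPN-/-, and 0.047 (adjusted p = 0.66) and -0.29 (adjusted p = 0.0070) without replicate 2.

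Pde4b (Entrez 18578, chr4:102087332-102607275), the PDE4 gene known for its part in inflammatory cells, had 11.2 and 9.36 CPM in CPN-/-, 12.5 and 11.1 with CRY1, and 11.7 and 11.1 with CRY2, and all 3 lines overlapped. Its log2 fold changes were 0.20 (95% interval -0.13 to 0.52), 0.15 (-0.18 to 0.48) and 0.05 (-0.28 to 0.37) for CRY1 over none, CRY2 over none and CRY1 over CRY2. The first was 0.34 (adjusted p = 0.026) without replicate 1 of CPN-/- and 0.089 (adjusted p = 0.59) without replicate 2, and the next was 0.29 (adjusted p = 0.069) and 0.041 (adjusted p = 0.86).

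**Figure D2:**
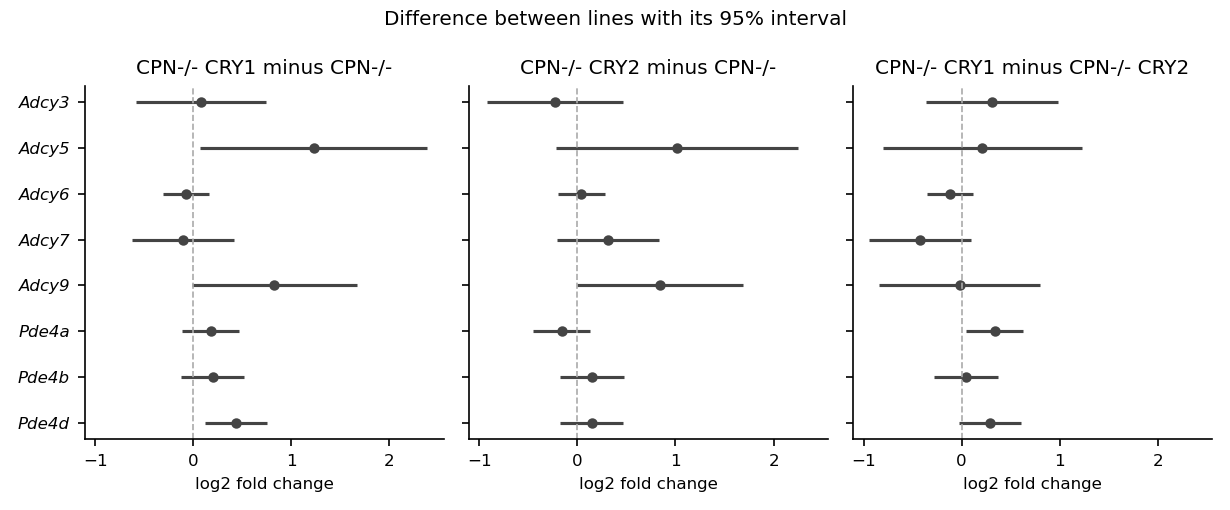
Log2 fold change of the 8 tested genes (points) with its 95% interval (lines) in the 3 comparisons, 2 libraries per line. Intervals exclude 0 for Adcy5 and Pde4d in CPN-/- CRY1 against CPN-/- and for Pde4a in CPN-/- CRY1 against CPN-/- CRY2, and no adjusted p is under 0.05. Adcy5 passed the filter on low counts only through CRY libraries.

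In the CPN-/- CRY1 against CPN-/- comparison, 0 of 8 genes were called, where 24.3% of the 14069 tested genes were (1579 or 11.2% higher and 1844 or 13.1% lower). At an unadjusted p under 0.05 there were 2 of the 8 (Adcy5 and Pde4d; 40.3% of all tested genes), and DESeq2's Wald test called 1 (24% of all genes with an adjusted p in that test). The libraries of the 2 lines did not overlap for 4 of the 8 genes, against 66.9% of all tested genes. Adcy5, which is in the unadjusted and the overlap counts, passed the filter on low counts only through CRY libraries. The median log2 fold change of the 8 was 0.19, beside -0.01 over all tested genes.

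In the CPN-/- CRY2 against CPN-/- comparison, 0 of 8 genes were called by edgeR, where 6.66% of the tested genes were (363 or 2.58% higher and 574 or 4.08% lower), and 0 by DESeq2, where 8.59% were. None of the 8 had an unadjusted p under 0.05 in edgeR (24.4% of all tested genes), and 1 did in DESeq2. Libraries did not overlap for 2 of the 8, Adcy5 and Adcy9, against 55.1% of all tested genes. The limit of the filter on low counts given for Adcy5 holds here too. The median log2 fold change was 0.15, beside -0.01 over all.

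In the CPN-/- CRY1 against CPN-/- CRY2 comparison, 0 of 8 genes were called by edgeR, where 16.3% of the tested genes were (1086 or 7.72% higher and 1206 or 8.57% lower), and 0 by DESeq2, where 16.6% were. Pde4a was the 1 gene with an unadjusted p under 0.05 (30.8% of all tested genes). Libraries did not overlap for 5 of the 8, against 73.3% of all tested genes. With the 4 libraries of these lines fitted alone, Adcy7, Pde4a and Pde4d were called, 3 of 8, where 49.7% of the tested genes were. The 3 comparisons share libraries and are not independent of each other.

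The spread of the CPN-/- libraries touched every comparison with that line. Since all 6 libraries share 1 fit, that spread also entered the tests between the CRY lines. There, 16.3% of tested genes were called in the shared fit and 49.7% in the 4 libraries alone. From replicate 1 to replicate 2 of CPN-/-, the log2 difference over all genes with a known length fell with transcript length (Spearman's rho -0.66 over 12478 genes of the same 2 libraries, given as a description), while it was 0.20 with CRY1 and -0.27 with CRY2. The SD of that difference over genes was 0.43, 0.22 and 0.23. The longest transcripts of the 8 genes measure 4207 to 7008 bases, above the median of 3404 bases, and all 8 genes were lower in replicate 2. Adcy9 was lower by far more than genes of its length, with a log2 difference of -1.31 where the trend stood at -0.23. Adcy3 (-0.84 against -0.31) and Adcy7 (-0.74 against -0.34) also went beyond the trend, whereas Adcy6 (-0.19 against -0.35) lay above it. Adcy5 (-0.71 against -0.44), Pde4d (-0.33 against -0.14), Pde4a (-0.29 against -0.19) and Pde4b (-0.25 against -0.15) lay below the trend too. What made the CPN-/- libraries differ was not tested.

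**Figure D3:**
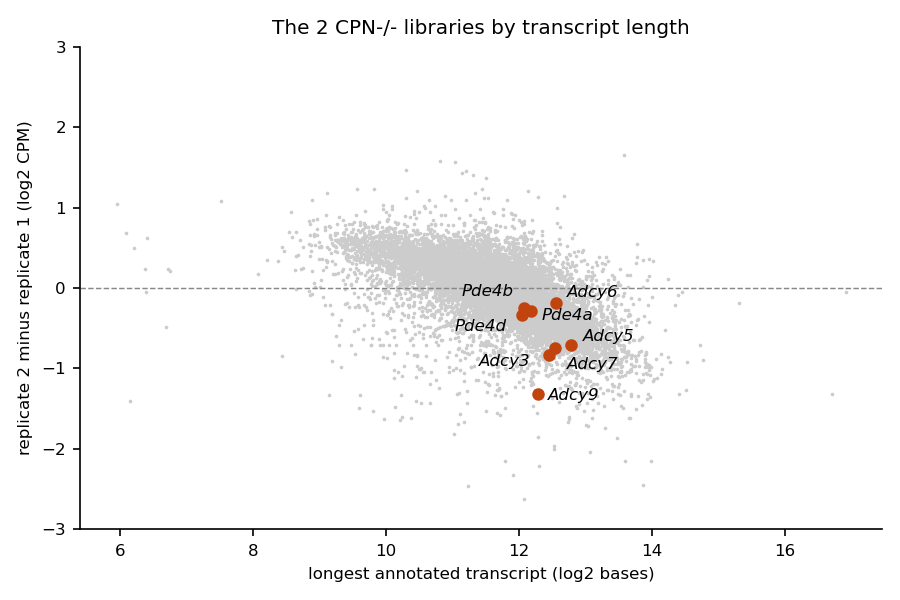
Difference of log2 CPM between the 2 CPN-/- libraries (replicate 2 minus replicate 1) against the log2 length of the longest annotated transcript, with grey points for tested genes and orange points for the 8 cyclase and PDE4 genes. The cloud falls with length, and Adcy9 (-1.31), Adcy3 (-0.84) and Adcy7 (-0.74) lie below its centre.

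Leaving out replicate 1 of CPN-/- gave 7 of 8 genes called in CPN-/- CRY1 against CPN-/-, all of them higher and Adcy6 being the exception, where 63% of all tested genes were called. Leaving out replicate 2 gave 3 of 8 (Adcy7 lower, Adcy9 and Pde4d higher), where 44.1% of all were called. In CPN-/- CRY2 against CPN-/-, 3 of 8 were called without replicate 1 (Adcy7, Adcy9 and Pde4d, all higher; background 56.4%). Without replicate 2, 3 of 8 were called (Adcy9 higher, Adcy3 and Pde4a lower; background 22.1%). In these fits the lone CPN-/- library is assumed to vary like the CRY libraries. Adcy5 passed the filter on low counts only through CRY libraries, so that its place among these calls gives no separate support for a rise. Called in the same direction whichever CPN-/- library was left out were Adcy9 in both comparisons and Pde4d in CPN-/- CRY1 against CPN-/-.

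**Figure D4:**
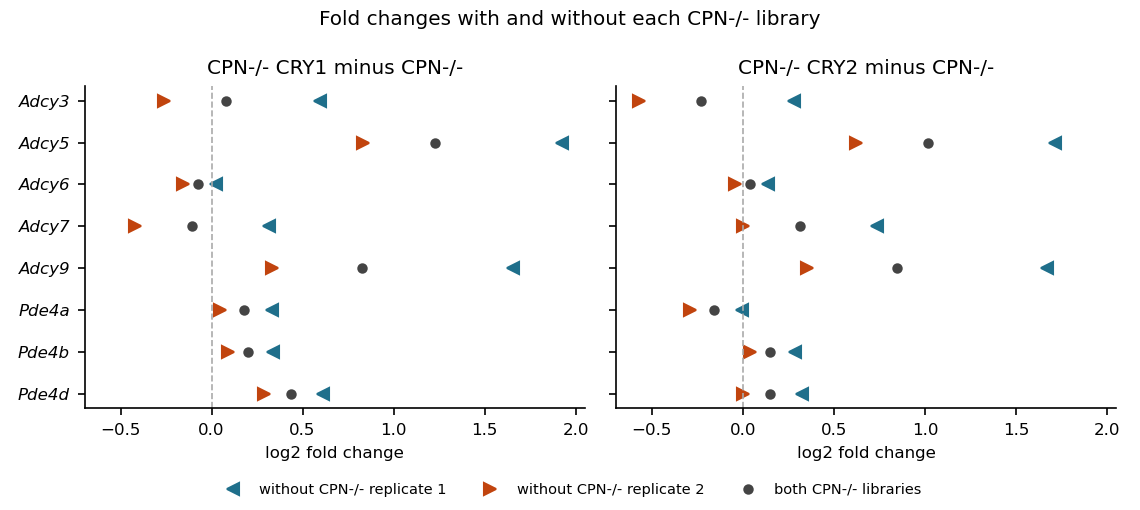
Log2 fold change of the 8 genes against CPN-/- with both CPN-/- libraries (circles), without replicate 1 (left-pointing triangles) and without replicate 2 (right-pointing triangles). The Adcy7 value in CPN-/- CRY1 moves from -0.42 to 0.32 between the triangles, while Adcy9 stays above 0 in both panels (0.33 to 1.67).

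The rest of the cAMP pathway was read from 9 lists holding 83 genes, 58 of which could be tested. CPN-/- CRY1 against CPN-/- called 16 of the 58 (8 higher and 8 lower; background 24.3%), the CRY2 line against CPN-/- called 3 (all higher; background 6.66%), and the comparison of the CRY lines called 15 (5 higher and 10 lower; background 16.3%). The higher calls in both comparisons of CPN-/- CRY1 include genes that passed the filter on low counts only through CPN-/- CRY1 libraries. The median log2 fold changes of the 58 genes were 0.20, 0.13 and 0.02 in the 3 comparisons. The genes named are up to 3 called genes of each list, by the lowest p in the comparisons with CPN-/-, and the 3 calls with CRY2 were Gnai1, Gnao1 and Pde8a.

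Of 8 tested receptors that couple to Gs, edgeR called 2 in CPN-/- CRY1 against CPN-/-, both higher, near the 24.3% of all tested genes. In CPN-/- CRY2 against CPN-/- 0 of 8 were called (6.66% of all tested genes). There, 4 of the 8 had an unadjusted edgeR p under 0.05 (24.4% of all tested genes). Adora2b, the low-affinity adenosine receptor, had 4.24 and 4.61 CPM in CPN-/-, 8.99 and 8.53 with CRY1, and 5.00 and 4.52 with CRY2. It rose by 0.99 ± 0.14 in log2 terms (SE) with CRY1 (adjusted p = 0.0041). Adcyap1r1, the receptor for the neuropeptide PACAP, had 0 and 1 counts in CPN-/-, 31 and 22 with CRY1, and 5 and 3 with CRY2. It passed the filter on low counts only through its CPN-/- CRY1 libraries, so that its call gives no separate support for a rise. The ratio of its summed counts per summed TMM-scaled library size, CPN-/- CRY1 to CPN-/-, was 45.8. The exact counting interval was 7.87 to 1842 (95%), which leaves out the spread between preparations, and the edgeR adjusted p was 0.0035.

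Of the 7 Gs and Gi alpha subunit genes, all tested, 2 rose in each comparison with CPN-/- (over all tested genes, 24.3% were called with CRY1 and 6.66% with CRY2). They were Gnai1 and Gnao1, which encode inhibitory-type alpha subunits. Gnai1 had 21.8 and 18.7 CPM in CPN-/-, 29.0 and 26.3 with CRY1, and 41.8 and 40.1 with CRY2. Its levels in the 3 lines did not overlap, and the log2 fold changes against CPN-/- were 0.45 (adjusted p = 0.036) and 1.01 (adjusted p = 0.0045). Gnao1 had 70.2 and 60.6 CPM in CPN-/-, 111 and 112 with CRY1, and 96.9 and 101 with CRY2, and it was higher by 0.77 (adjusted p = 0.0039) with CRY1 and by 0.60 (adjusted p = 0.020) with CRY2 on the log2 scale.

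Of the 4 cyclase genes outside the 6, Adcy1, the calmodulin-stimulated neuronal cyclase, was the 1 that could be tested. It had 21.5 and 16.3 CPM in CPN-/-, 8.63 and 9.80 with CRY1, and 22.4 and 18.9 with CRY2. It fell by 1.04 in log2 terms with CRY1 (SE 0.17, edgeR adjusted p = 0.0079), and the value for CPN-/- CRY2 was 0.12 (95% interval -0.28 to 0.52). Per kb it stood at 1.51 CPM in the CPN-/- line, close to Adcy9 at 1.66.

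Of the 7 tested genes for other cAMP-hydrolysing phosphodiesterases, 1 rose and 4 fell in CPN-/- CRY1 against CPN-/- (11.2% and 13.1% of all tested genes). The gene that rose had 3 to 9 counts in CPN-/-, 17 to 37 with CRY1 and 3 to 6 with CRY2. It passed the filter on low counts only through CPN-/- CRY1 libraries, so that its call gives no separate support for a rise. The list's median log2 fold change was -0.71 (-0.01 over all tested genes). Pde1a, a calmodulin-dependent enzyme, had 8.61 and 6.03 CPM in CPN-/-, 0.194 and 0.324 with CRY1, and 3.75 and 4.78 with CRY2. The CPN-/- CRY1 libraries held 7 and 10 counts of it, and the log2 fold change was -4.83 ± 0.34 (SE, adjusted p = 0.00038). Pde3b, the insulin-responsive enzyme of fat and liver, had 45.2 and 33.7, 19.9 and 21.2, and 47.4 and 43.8 CPM in the same order of lines, and fell by 0.94 in CPN-/- CRY1 (adjusted p = 0.0073). Pde8a, a high-affinity cAMP enzyme, had 61.9 and 43.7, 76.7 and 75.0, and 101 and 96.4 CPM. It was called in CPN-/- CRY2 (0.90, adjusted p = 0.023), with a value of 0.52 in CPN-/- CRY1 (adjusted p = 0.058). The latter passed in 6 of 15 alternative fits, DESeq2's Wald test (adjusted p = 0.019) and the fit without the filter (adjusted p = 0.029) among them, and the highest adjusted p was 0.24. Without replicate 1 of CPN-/- it was 0.80, and without replicate 2 it was 0.30.

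Downstream of cAMP, the calls per list in CPN-/- CRY1 against CPN-/- stand beside 24.3% of all tested genes. Of 7 tested protein kinase A genes, 1 fell. It was Pkia, an inhibitor of the kinase, at -0.74 (adjusted p = 0.0044). Akap12, a scaffold that anchors the kinase, was the 1 of 10 anchoring protein genes called, with 127 and 82.9 CPM in CPN-/- and 226 and 241 in CPN-/- CRY1 (log2 fold change 1.15, adjusted p = 0.0077). Of the 8 CREB family and coactivator genes, Crtc2, a CREB coactivator, fell by 0.44 (adjusted p = 0.017). Neither of the 2 tested genes of other cAMP effectors was called, and both had an unadjusted p above 0.05 in that comparison.

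Genes known as CREB targets were called in both directions in CPN-/- CRY1, 2 higher and 1 lower of 8 tested (11.2% and 13.1% of all tested genes). The list median was 0.14. Bdnf, a neurotrophin, rose by 0.69 (adjusted p = 0.0049) and Dusp1, a phosphatase of MAP kinases, rose by 1.29 (adjusted p = 0.017). The Dusp1 value was 0.94 without replicate 1 of CPN-/- and no longer passed (adjusted p = 0.096). Sik1, a kinase that restrains CREB coactivators, fell by 0.68 (adjusted p = 0.013).

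**Figure D5:**
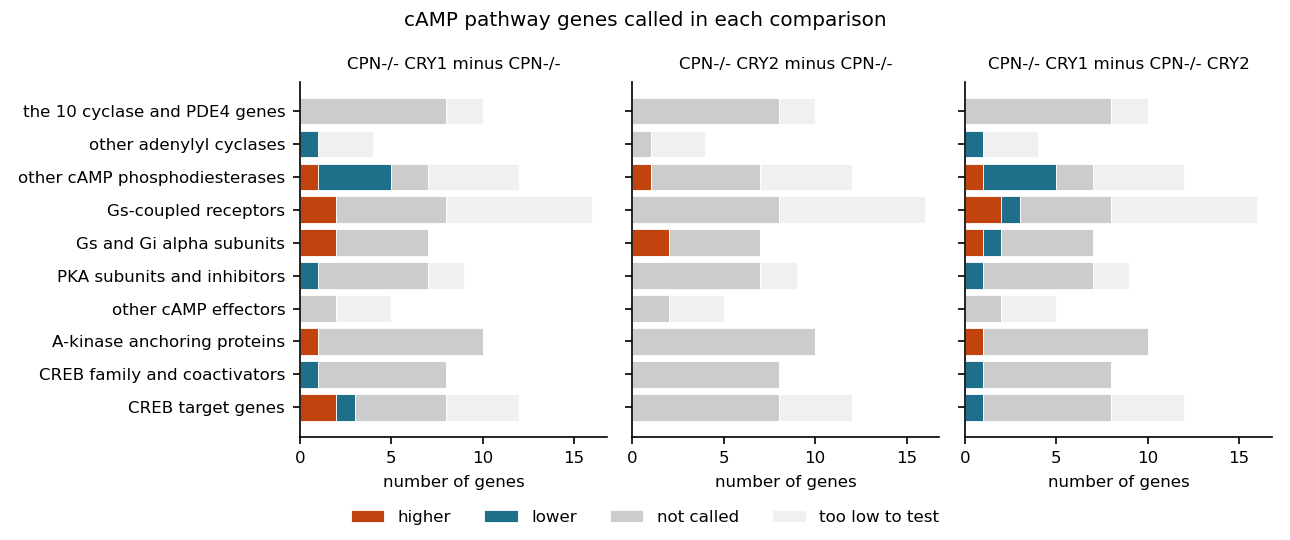
Number of genes per list that were called higher (orange), called lower (blue), not called (grey) or too low to test (pale) in each comparison, at an edgeR adjusted p under 0.05. The 10 cyclase and PDE4 genes have no called gene in any panel, where 24.3%, 6.66% and 16.3% of all tested genes were called in turn. The other cAMP phosphodiesterases have 5 of 7 tested genes called in CPN-/- CRY1 against CPN-/-. The gene called higher among them passed the filter on low counts only through CPN-/- CRY1 libraries.

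The number of pathway calls depended on the libraries of every line. Without replicate 1 or replicate 2 of CPN-/-, the 16 calls of CPN-/- CRY1 against CPN-/- came to 40 and 30 (background 63% and 44.1%), and the 3 of CPN-/- CRY2 against CPN-/- to 34 and 15 (background 56.4% and 22.1%). Without replicate 1 or replicate 2 of CPN-/- CRY1, the 16 calls against CPN-/- came to 3 and 4, while calls over all genes fell from 3423 to 678 and 663. Of the genes named above, Pde1a and Adcyap1r1 were called in CPN-/- CRY1 against CPN-/- under every library left out. For Adcyap1r1 this gives no separate support for a rise, since it passed the filter on low counts only through CPN-/- CRY1 libraries. The 3 calls of CPN-/- CRY2 against CPN-/- came to 0 without either CPN-/- CRY2 library, and to 1 without either CPN-/- CRY1 library. Pkia and Crtc2 lie on chromosome 3, whose 638 tested genes had a median log2 fold change of -0.28 in CPN-/- CRY1 against CPN-/-, and the Crtc2 call was lost with chromosome medians removed. As bulk libraries, these data cannot tell fewer expressing cells from less RNA per cell.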

How the data were processed

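The authors sequenced polyA-selected, stranded mRNA libraries as paired-end reads, mapped them to mm10 with STAR and counted reads per gene with featureCounts (tools also named in the submitters' processing notes). The deposited files hold whole counts for 27179 Entrez genes, without normalization. The annotation, strand setting and treatment of reads with several matches are not given in the sources used here. Symbols came from the RefSeq table (25275 genes matched; 1 listed anchoring protein gene, Akap2, had no match), and positions, lengths and exons from GENCODE for mm10. All 6 libraries were fitted together with edgeR 4.0.16 (R 4.3.3): TMM factors, filterByExpr (14069 genes kept), robust quasi-likelihood test with the line as the only term, two-sided, Benjamini-Hochberg adjustment over all tested genes, and called at an adjusted p under 0.05. Intervals are 95%. CPM used TMM factors. DESeq2 1.42.0 was an alternative, beside the others named in the closing section, and the steps were tested on simulated data. Near-identical transcripts (95% identity over 150 bases) were searched with BLAST+ 2.17.0 and found only where exons of Adcy3 and Adcy6 overlap genes on the opposite strand. All members were named, with up to 3 called genes per pathway list by the lowest p in the comparisons with CPN-/-. Members and lists were chosen with earlier results of these data known. The alternatives for the pathway genes were added after seeing the data.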

Additional observations from a re-analysis of the deposited data

Results flagged for a closer look

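None of the 10 cyclase and PDE4 genes met a rule for a closer look. The genes flagged, 10 in all, were other genes of the cAMP pathway, because CPN-/- CRY1 and CPN-/- CRY2, both compared with CPN-/-, differed from each other in the edgeR test of that difference. The log2 values of CPN-/- CRY1 minus CPN-/- CRY2 were -4.04 for Pde1a (adjusted p = 0.00089), -1.16 for Adcy1 (adjusted p = 0.0066) and -1.15 for Pde3b (adjusted p = 0.0042), genes for cAMP turnover that were lower in CPN-/- CRY1. Among receptors they were 0.88 for Adora2b (adjusted p = 0.0073) and 2.39 for Adcyap1r1 (adjusted p = 0.016), and for the G protein gene Gnai1 the value was -0.57 (adjusted p = 0.020). Adcyap1r1 had passed the filter on low counts only through its CPN-/- CRY1 libraries. Downstream they were -0.67 for Pkia (adjusted p = 0.0076), 0.95 for Akap12 (adjusted p = 0.019), -0.51 for Crtc2 (adjusted p = 0.014) and -0.51 for Sik1 (adjusted p = 0.044). Both libraries of a line lay on the same side of both libraries of the other for these 10 genes, as for 73.3% of all tested genes. This adds no support, since the 10 were picked by the test of the same libraries. Of these calls, that of Pde1a alone was kept with each library left out in turn, and those of Pkia and Crtc2 were lost with chromosome medians removed (chromosome 3 had a median of -0.40 over 638 genes). The cause of these differences was not tested.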

How the results depend on the processing

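No fold change of the 8 genes reversed, and no call moved, under DESeq2's size factors, unscaled library totals or at least 10 counts in every library, where Adcy5 drops out. Calls among the 8 genes for CPN-/- CRY1 against CPN-/- (0) became 1 without the filter (19.1% of all genes), 1 with DESeq2's Wald test (24%) and 2 with the length trend removed (38.1%; Adcy6 -0.22 and Pde4d 0.41), and ranged from 0 to 7 with a library left out. For CPN-/- CRY2 against CPN-/- the range was 0 to 3. Between the CRY lines the calls were 2 with the length trend removed (30.2%), 3 in the 4 libraries alone (49.7%), and 0 to 3 with a library left out. Over all genes, calls with CRY1 against CPN-/- were 5354 with the length trend removed, 1798 in the 4 libraries alone, 1089 at a log2 fold change of at least 1, and 663 to 8980 with a library left out. With CRY2 against CPN-/- they were 583 at 10 counts in every library, 2235, 473, 526 and 199 to 8046 for those settings. Between the CRY lines they were 4247, 6838, 828 and 475 to 6897, with 1472 when chromosome medians were removed. Calls among the 58 pathway genes with CRY1 were 25 with the length trend removed, 6 at a log2 fold change of at least 1, and 3 to 40 with a library left out. With CRY2 they were 5 without the filter, 5 with DESeq2, 8 with the length trend removed, 1 in the 4 libraries alone, 1 at that fold, and 0 to 34. Between the CRY lines they were 33 in the 4 libraries alone, 7 at that fold, and 1 to 33.

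Reversals were of values that had not passed the threshold. With the length trend removed, Adcy3 with CRY1 became -0.013, and with CRY2 Adcy6 became -0.10 and Adcy1 -0.27. With chromosome medians removed, Adcy6 became 0.30 with CRY1, -0.032 with CRY2 and 0.33 between the CRY lines, where Adcy5 became -0.12, and Crtc2 with CRY2 became -0.040. The rest came from leaving out a library. With CRY1, the ranges were -0.26 to 0.60 for Adcy3, -0.16 to 0.023 for Adcy6 and -0.42 to 0.32 for Adcy7. With CRY2 they were -0.57 to 0.28 for Adcy3, -0.042 to 0.14 for Adcy6, -0.0011 to 0.74 for Adcy7, -0.052 to 0.34 for Adcy1 and -0.059 to 0.55 for Akap12. Between the CRY lines they were -0.10 to 0.50 for Adcy5, -0.070 to 0.029 for Adcy9 and -0.038 to 0.13 for Pde4b. The cause of these reversals was not tested.

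A replicate block left 0 of the 8 genes called in each comparison, with 3458, 977 and 2188 calls over all genes. Of the pathway genes named, it brought 3 values past the threshold, Pde8a with CRY1 (0.54, adjusted p = 0.032) and Dusp1 with CRY2 (0.70, adjusted p = 0.032) and between the CRY lines (0.63, adjusted p = 0.026). The labels do not say whether same-numbered libraries were prepared together. Same-numbered differences correlated across genes at -0.09 (CPN-/- and CRY1), 0.15 (CPN-/- and CRY2) and -0.04 (the CRY lines), which shows no strong shared effect but cannot settle the pairing. With 2 libraries a line, intervals as wide as those given for Adcy5 and Adcy9 limit what could be called.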
